A study of Mus musculus with 5 samples.

Results

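The colony-stimulating factor receptors and myeloid growth signals are described here as 9 genes, of the 27179 in the deposited table. They are the receptor genes Csf1r, Csf2ra, Csf2rb, Csf2rb2, Csf3r and Flt3 and the ligand genes Csf1, Il34 and Csf2, chosen by name and matched by Entrez identifier. The RNA came from Langerhans cells, antigen-presenting phagocytes of the epidermis, isolated from the skin of C57BL/6 mice at 1 week of age. The cKO mice carried a conditional knockout of Suz12, a core subunit of Polycomb repressive complex 2 (3 libraries), and the others were wild type (2 libraries). The sources used here name no Cre driver or sex, and do not say whether the wild type mice carried floxed alleles or Cre. Each library came from 5000 cells, and nothing states whether animals were pooled.

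CSF1R is a receptor tyrosine kinase with 2 ligands, CSF1 and interleukin 34 (IL-34). In mouse epidermis, IL-34 made by keratinocytes is known to maintain Langerhans cells through CSF1R. The receptor for GM-CSF (the product of Csf2) pairs an alpha chain, encoded by Csf2ra, with the common beta chain, encoded by Csf2rb, and signals through JAK2 and STAT5. FLT3 drives dendritic cell development from bone marrow progenitors, and CSF3R is the G-CSF receptor of neutrophils.

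The libraries held 12090062 to 25725900 counts, and 9103 to 10220 genes had at least 1 count. CPM is the count per 1e+06 counts of the TMM-scaled library. A count of 0 allows a level of up to 0.106 to 0.258 CPM, the value of 3 counts. Such floors and the intervals below cover counting error only, because the libraries were amplified and carry no molecular identifiers. Suz12 had 7 counts over the cKO libraries and 127 over the wild type libraries, at 0.200 ± 0.347 CPM in cKO and 3.48 ± 1.67 CPM in wild type (SD, n = 3 and n = 2), with a log2 fold change of -4.11 and an edgeR adjusted p of 0.999. The source label names alveolar macrophages, whereas the titles and protocol name Langerhans cells of skin. The 12 Langerhans cell markers summed to 110300 to 116300 CPM in cKO and to 99940 and 121600 CPM in wild type. Most of each sum came from Cd74, H2-Ab1 and H2-Aa, of antigen presentation, with means of 39480, 35800 and 22820 CPM over the libraries. The sums thus describe mainly antigen presentation genes. Cd207, which encodes langerin, averaged 9876 CPM in cKO and 7500 CPM in wild type. Across all 9988 tested genes, edgeR's quasi-likelihood test called 0 (0%) at an adjusted p of 0.05, 415 (4.15%) had an unadjusted p under 0.05, and DESeq2 called 191 of the 9019 to which it gave an adjusted p (2.12%). The libraries are described as biological replicates with no word on separate animals, so p-values reflect the spread among these libraries.

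Per length, transcripts of CSF1R and of the GM-CSF receptor alpha chain led in the Langerhans cells, and their order was not resolved. The ratio of Csf1r over Csf2ra ran from 0.71 in cKO replicate 1 to 1.69 in cKO replicate 2. It was 1.07 and 1.17 in wild type replicates 1 and 2. Csf1r lay at 80.3, 250.03 and 113 RPKM (CPM per kilobase of gene length) in cKO replicates 1 to 3, and at 108.5 and 98.3 RPKM in wild type replicates 1 and 2. Csf2ra lay at 114, 148 and 100.2 RPKM in cKO replicates 1 to 3, and at 101 and 84.0 RPKM in the wild type libraries. Csf1r was the higher of the pair in 4 of 5 libraries, and in cKO replicate 1 Csf2ra was higher. The mean log2 ratio of Csf1r over Csf2ra was 0.15 ± 0.45 (SD, n = 5), which did not pass an exact two-sided sign-flip permutation test (p = 0.562, where the smallest p it allows is 0.0625). Without cKO replicate 2 the mean log2 ratio was -0.00105, with Csf1r higher in 3 of 4 libraries, and without cKO replicate 1 it was 0.31, with Csf1r higher in 4 of 4. Divided by no length, the log2 ratio was 1.22 with Csf1r higher in 5 of 5 libraries, but the exon length of Csf1r is 3875 bases and that of Csf2ra 1849 bases. In mean RPKM over the 5 libraries, Csf1r lay above 90.3% of the tested genes and Csf2ra above 89.1%.

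Below this pair came the common beta chain Csf2rb with a mean of 26.7 RPKM, Flt3 with 10.07 RPKM, the mouse interleukin 3 beta chain Csf2rb2 with 7.05 RPKM, and Csf3r with 1.11 RPKM. Csf2ra lay above Csf2rb in 5 of 5 libraries, by a mean log2 ratio of 2.10 ± 0.55 (SD, n = 5). That step had the smallest exact sign-flip p the test allows (0.0625), or 0.25 with Benjamini-Hochberg adjustment over the 4 neighbouring pairs compared. The steps from Csf2rb to Flt3 (exact p = 0.125, higher in 4 of 5 libraries) and from Flt3 to Csf2rb2 (exact p = 0.5, higher in 3 of 5) were not separated from the spread between libraries.

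As shares of the summed RPKM of the 6 receptors, Csf1r made up 30.3%, 57.3% and 45.1% in cKO replicates 1 to 3, and 42.4% and 45.9% in the wild type libraries. The share ran lower and higher in cKO than in either wild type library, with means of 44.2 ± 13.5% in cKO and 44.1 ± 2.49% in wild type (SD, n = 3 and n = 2). The difference of 0.0986 percentage points had an exact permutation p of 1, where the 10 assignments of the libraries allow no p below 0.1. The difference was -6.44 percentage points without cKO replicate 2 and 7.06 without cKO replicate 1. It was also below 0 without cKO replicate 3 (-0.32), without wild type replicate 1 (-1.66) and without division by length (-0.62), so its sign did not hold. Csf2ra took 43.0%, 33.9% and 40.0% in cKO, and 39.5% and 39.2% in wild type, which makes it the more even of the leading receptors.

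**Figure D1:**
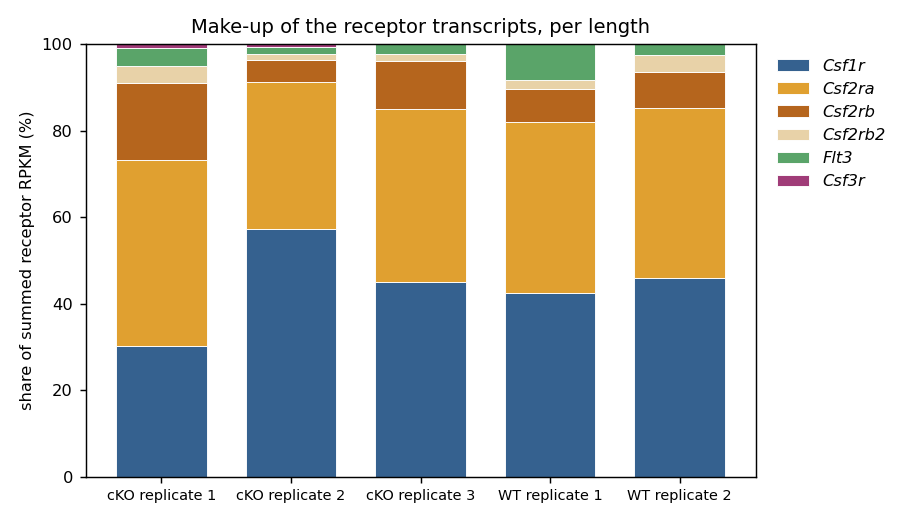
Share of the summed receptor RPKM (percent, vertical axis) taken by each of the 6 receptor genes in the 3 Suz12 cKO and 2 wild type libraries; each bar is 1 library. Csf1r and Csf2ra fill most of every bar, and Csf1r ranges from 30.3% in cKO replicate 1 to 57.3% in cKO replicate 2.

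Promoter sequence is given for 3 of the genes at different levels: Csf2ra, counted in every library, Csf3r, counted mainly in 2 libraries, and Csf2, with no count. The 250 bases before a start site are from RefSeq on GRCm38.p6, 5′ to 3′ on the strand of the gene, at chr19:61228419-61228668 (minus), chr4:126024409-126024658 (plus) and chr11:54249900-54250149 (minus). Capitals mark GAGGAA, or its reverse complement TTCCTC, the core bound by PU.1, the myeloid factor encoded by Spi1.
Csf2ra promoter: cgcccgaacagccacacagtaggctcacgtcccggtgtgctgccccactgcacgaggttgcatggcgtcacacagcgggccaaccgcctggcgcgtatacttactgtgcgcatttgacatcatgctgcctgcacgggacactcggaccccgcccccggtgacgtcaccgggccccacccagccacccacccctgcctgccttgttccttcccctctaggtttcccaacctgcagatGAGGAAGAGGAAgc
Csf3r promoter: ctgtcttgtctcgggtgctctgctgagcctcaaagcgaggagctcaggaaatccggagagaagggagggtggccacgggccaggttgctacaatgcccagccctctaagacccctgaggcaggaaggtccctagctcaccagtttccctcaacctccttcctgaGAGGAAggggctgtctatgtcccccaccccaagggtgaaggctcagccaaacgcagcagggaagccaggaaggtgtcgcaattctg
Csf2 promoter: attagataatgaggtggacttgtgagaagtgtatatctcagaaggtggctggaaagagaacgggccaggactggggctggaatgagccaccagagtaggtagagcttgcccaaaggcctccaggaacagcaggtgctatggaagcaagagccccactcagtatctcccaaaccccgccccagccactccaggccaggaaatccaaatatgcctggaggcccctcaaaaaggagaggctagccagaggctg
The Csf2ra window held 2 copies of GAGGAA, side by side with no overlap and with the last base 3 bases upstream of the start used. In Csf2ra and Csf3r that start lies inside the full gene span, which has a further start upstream. Csf3r held 1 copy and Csf2 none, and 23.1% of the windows of all 27025 genes with one held at least 1 copy on either strand. The same windows held 17 CpG dinucleotides in Csf2ra, 6 in Csf3r and 2 in Csf2, against a median of 6 over all genes. Over the 6 genes whose windows were examined, neither number kept the order of the levels throughout, and a relation with the level was not tested. Windows of Csf2rb, Il34 and Csf1r, which had the highest mean RPKM, were not examined. Flt3, counted in every library, held no GAGGAA and 13 CpG, Csf2rb2, also counted in every library, held 1 copy and 3 CpG, and Csf1, counted in 1 library, held none and 10 CpG. A match is a description of the letters and not a site of binding. Spi1 lay at 492, 560.4 and 309 CPM in cKO, and at 486 and 492 CPM in wild type, so its transcript was present in every library.

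Csf1r (chromosome 18, 61105572 to 61131139, mm10) was counted at 311, 969 and 437 CPM in cKO replicates 1 to 3, and at 420.4 and 381 CPM in wild type replicates 1 and 2. The cKO libraries lay on both sides of the wild type pair, and replicate 2 alone stood well above it. The highest cKO library was 3.12 times the lowest, whereas the wild type libraries differed 1.10-fold. The log2 fold change was 0.51 (standard error 0.51), with a 95% interval from -0.69 to 1.72 (edgeR adjusted p = 0.999). Without cKO replicate 2 it was -0.10 with a standard error of 0.26 (edgeR adjusted p = 1). That library was also the deepest. Markers of dermal macrophages, which also express Csf1r, summed to 879, 2385 and 1784 CPM in cKO replicates 1 to 3, and to 2091 and 1656 CPM in wild type, with 8 or 9 of 12 genes detected and Lyve1, Folr2 and Mertk at 0 throughout. Markers of monocytes summed to 573, 1102 and 622 CPM in cKO, and to 2227 and 1171 CPM in wild type, with 3 to 6 of 9 genes detected and Plac8 and Chil3 among those at 0 throughout. The genes of these lists differed in pattern. Cd14 lay at 612, 1701 and 1330.0 CPM in cKO, and at 1275 and 1097 CPM in wild type, and Nr4a1 was likewise highest in cKO replicate 2, at 430.0 CPM. The complement gene C1qc lay at 13.4, 169 and 148 CPM in cKO, and at 321 and 215.5 CPM in wild type. Lyz2, the lysozyme gene, lay at 528, 639.8 and 499.5 CPM in cKO, and at 2101 and 1081 CPM in wild type (edgeR unadjusted p = 0.00369, adjusted p = 0.968). C1qc and Lyz2 were thus lower in every cKO library than in either wild type library, as were 10.2% of all tested genes. The part of such cells in the Csf1r level was not tested.

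Csf2ra (chromosome 19, 61217191 to 61228461) was the steadiest of the receptors counted in every library, with a 1.76-fold range over the 5. It lay at 210.3, 273 and 185 CPM in cKO, and at 187 and 155 CPM in wild type. Only cKO replicate 3 fell inside the wild type range. The log2 fold change of 0.38 had a standard error of 0.34 and a 95% interval from -0.42 to 1.18 (edgeR adjusted p = 0.999), and it stayed between 0.21 and 0.53 with each library left out in turn.

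Csf2rb (chromosome 15, 78325800 to 78351001) was the receptor gene whose groups did not overlap. It lay at 222, 105 and 131 CPM in cKO replicates 1 to 3, and at 92.8 and 86.2 CPM in wild type, so every cKO library was above both wild type libraries. The mean was 153 ± 61.7 CPM in cKO and 89.5 ± 4.66 CPM in wild type (SD, n = 3 and n = 2). Its log2 fold change of 0.77 had a standard error of 0.44 and a 95% interval from -0.29 to 1.83, and it did not pass (edgeR adjusted p = 0.999). Of all tested genes 8.87% likewise had every cKO library above both wild type libraries, so 1 such gene among 6 tested receptors is near what the table as a whole shows. Csf2rb was lowest of the cKO libraries in replicate 2, where Csf1r was highest, and highest in replicate 1, where Csf1r was lowest. Without cKO replicate 1 the log2 fold change was 0.41.

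Csf2rb2, its neighbour at chromosome 15, 78282507 to 78305721, encodes the beta chain that in the mouse serves interleukin 3 only. It lay at 48.9, 30.7 and 18.2 CPM in cKO, and at 26.1 and 38.8 CPM in wild type, so that the wild type values fell inside the cKO range. The log2 fold change was 0.01 (standard error 0.80, 95% interval -1.90 to 1.91, edgeR adjusted p = 0.999). The paralogs are close copies: of the 75-base windows in annotated transcripts, 10.6% of those of Csf2rb2 and 7.15% of those of Csf2rb occur in the other gene. Reads of that length from the shared windows cannot be assigned to 1 gene unless the mate of the pair falls outside them. With the counts of the pair summed, the log2 fold change was 0.60 (standard error 0.42, edgeR adjusted p = 0.999).

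The balance of the GM-CSF receptor chains also varied mostly among cKO libraries. The RPKM of the common beta chain Csf2rb over that of Csf2ra was 0.410, 0.149 and 0.274 in cKO replicates 1 to 3, and 0.192 and 0.215 in wild type. Alpha chain transcript exceeded beta chain transcript in every library. The cKO values spread around those of wild type, with no separation of the groups.

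Flt3 (chromosome 5, 147330741 to 147400489) differed most between the wild type libraries themselves. It lay at 40.9, 24.3 and 21.9 CPM in cKO, and at 77.4 and 19.7 CPM in wild type replicates 1 and 2, a 3.93-fold gap between the wild type pair that spans all 3 cKO values. The log2 fold change of -0.74 had a standard error of 0.82 and a 95% interval from -2.71 to 1.23 (edgeR adjusted p = 0.999), and without wild type replicate 1 it was 0.56. Wild type replicate 1 also held the most Xcr1 and Clec9a, which mark conventional type 1 dendritic cells. Xcr1 lay at 13.6, 18.9 and 31.7 CPM in cKO, and at 55.2 and 10.2 CPM in wild type. Clec9a lay at 0, 2.19 and 0.515 CPM in cKO, and at 51.2 and 17.4 CPM in wild type. Batf3 was also highest in wild type replicate 1, at 19.9 CPM, but Zbtb46 and Itgae were not. In wild type replicate 1 Zbtb46 lay at 0.159 CPM and Itgae at 11.3 CPM, against 23.7 and 16.8 CPM in cKO replicate 1. The list of 13 markers of other dendritic cells, Flt3 among them, summed to 448 to 594.5 CPM with 10 genes detected in each cKO library. In wild type it summed to 1166 and 826 CPM, with 12 and 10 genes detected. Most of the gap between the groups came from Cd209a, a lectin gene, at 39.0, 134 and 136 CPM in cKO, and at 669.5 and 421 CPM in wild type (edgeR unadjusted p = 0.00437, adjusted p = 0.968). Without Cd209a the list summed to 409, 461 and 414 CPM in cKO, and to 496 and 405 CPM in wild type, and the groups overlapped. Ccr7, a migration receptor gene, lay at 165, 138 and 229 CPM in cKO, and at 162 and 93.7 CPM in wild type. Of its tested genes 4 lay higher and 7 lower, and Ccr9 had no count in any library. The part of such cells in the Flt3 level was not tested, and in bulk RNA fewer cells of a type and less RNA per cell cannot be told apart.

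Csf3r (chromosome 4, 126023441 to 126044975) was counted in cKO replicates 1 and 2 and hardly elsewhere. It had 151, 368 and 0 counts in cKO replicates 1 to 3, and 1 and 0 counts in wild type. In CPM these were 9.45 (95% exact Poisson interval 8.0 to 11.1), 13.03 (11.7 to 14.4) and 0 in cKO, and 0.0529 (0.00134 to 0.295) and 0 in wild type. Since cKO replicate 3 had no count, the groups overlapped. All of its counts fell in the 3 libraries with LC in their titles, and none in the 2 titled Langerhans-cell (cKO replicate 3 and wild type replicate 2). With a term for the title style its log2 fold change was 6.11, against 7.80 without the term (edgeR adjusted p = 1 and 0.999). The ratio of the groups was 333, with a counting interval from 59.5 to 13180, and the fitted change did not pass (edgeR unadjusted p = 0.118, adjusted p = 0.999). With DESeq2 the unadjusted p was 0.0181 and the adjusted p 0.295. Of the 14 neutrophil markers, 9 had no count in any library, Cxcr2, S100a9, Retnlg, Mpo and Elane among them, and S100a8 was counted in cKO replicate 3 alone, at 6.27 CPM. The list summed to 230.4 to 523 CPM in cKO and to 174 and 185 CPM in wild type, nearly all of it from Mmp9, a metalloproteinase gene, and 1 to 3 of its genes were detected in a library. Over the whole table, 98 genes had at least 100 counts in cKO replicates 1 and 2 and at most 3 in each of the other libraries. The same pattern over the 10 pairs of libraries held for 24 to 102 genes a pair, and for 102 in the pair of cKO replicate 2 and wild type replicate 2, so it was not particular to libraries of 1 genotype. These limits are in raw counts, and cKO replicate 2 was the deepest library.

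**Figure D2:**
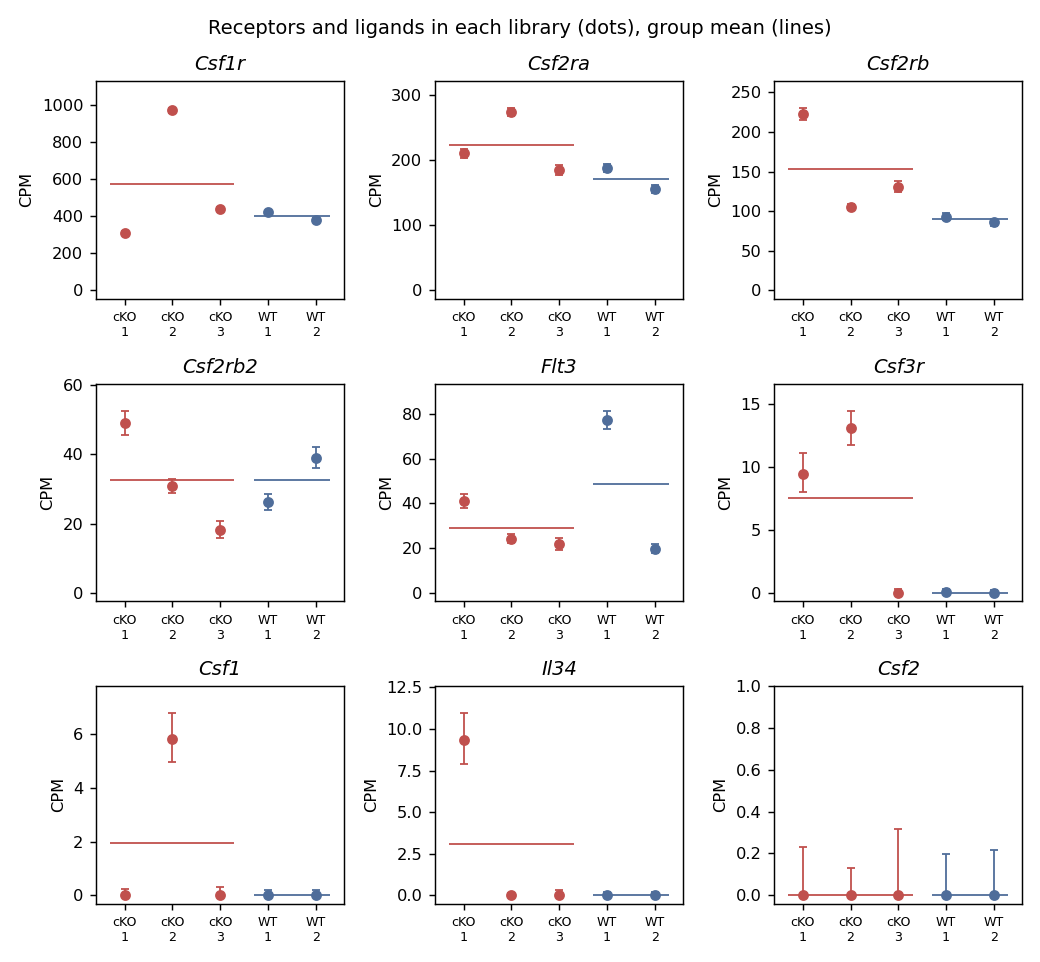
CPM (vertical axes, each gene on its own scale) of the 9 genes in the 3 Suz12 cKO libraries (red) and the 2 wild type libraries (blue); dots are libraries with 95% exact Poisson intervals and lines are group means. Csf2rb is the gene with every cKO library above both wild type libraries, and Csf1 and Il34 each rest on 1 library.

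The ligands were close to undetected. Csf1 (chromosome 3, 107741048 to 107760469) had 164 counts in cKO replicate 2, at 5.81 CPM, and none in the other 4 libraries. Il34 (chromosome 8, 110741829 to 110805949) had 149 counts in cKO replicate 1, at 9.32 CPM, and none in the other 4. Csf2 (chromosome 11, 54247270 to 54249899) had 0 counts in all 5 libraries, which allows up to 0.106 to 0.258 CPM. Against 3 counts over the wild type group, Csf1 was at least 35.1-fold and Il34 at least 31.9-fold higher in cKO, each on the counts of 1 library. None of the 3 ligands passed the filter on low counts. With no filter, Csf1 (edgeR unadjusted p = 0.169) and Il34 (unadjusted p = 0.161) had an adjusted p of 0.703, and Csf2, with no count, could not be fitted.

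Detection in 1 library was not limited to Csf1 and Il34. At least 100 counts in 1 library and at most 3 in each of the others were found for 341 genes in cKO replicate 2 and for 177 in cKO replicate 1. The other libraries had 135 to 240 such genes each, wild type libraries included, with a total of 1065 of the 27179 genes. These limits are in raw counts, which deeper libraries reach more readily, and cKO replicate 2 was the deepest. Keratinocytes, the known source of IL-34, left transcripts in every library. Their 21 markers summed to 1131, 1336 and 1245 CPM in cKO replicates 1 to 3, and to 539.5 and 929 CPM in wild type, with 14 to 17 genes detected in each and Dsg3 and Calml3 at 0 throughout. The highest were Krt14, a basal keratin gene, at 134, 215 and 144 CPM in cKO, and at 89.5 and 235 CPM in wild type, and Krtdap, of keratinocyte differentiation, at 124, 145 and 336.5 CPM in cKO, and at 45.4 and 76.8 CPM in wild type. cKO replicate 1, the library with Il34 counts, had the lowest keratinocyte sum of the cKO libraries and a higher one than either wild type library. For Csf2, a product of activated lymphocytes, the 16 markers of T cells and innate lymphoid cells summed to 1240, 523 and 358 CPM in cKO, and to 863 and 588 CPM in wild type, with 8 to 14 genes detected and Cd5 and Ncr1 at 0 throughout. Markers of fibroblasts and endothelium, other known sources of CSF1, summed to 9.76, 46.8 and 211 CPM in cKO, and to 21.2 and 109 CPM in wild type. Of those 12 genes 3 to 6 were detected in a library, and Pdgfra, Pdgfrb, Cdh5, Kdr and Tie1 were at 0 throughout. The part of these cells in the ligand counts was not tested.

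Over the 6 tested receptors, 5 lay higher and 1 lower in cKO, with a median log2 fold change of 0.45, beside 5246 higher and 4742 lower and a median of 0.06 over all 9988 tested genes. Csf3r passed the filter on low counts through cKO libraries alone, so these counts describe the set and support nothing. RefSeq places a long non-coding gene across part of every one of the 9 genes except Csf2ra, Csf2rb and Csf2rb2, and without a stated strand setting reads of such overlaps cannot be told apart.

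**Figure D3:**
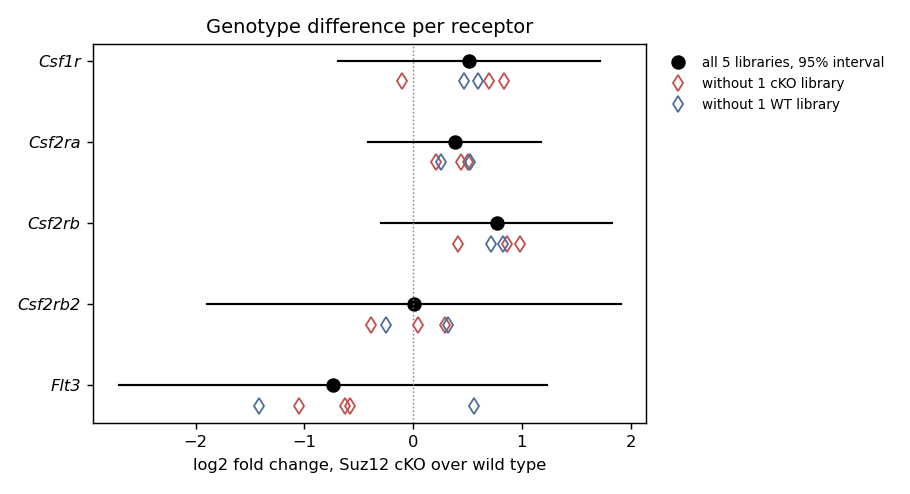
Log2 fold change of Suz12 cKO over wild type (horizontal axis) for the 5 receptors counted in every library; filled dots with lines are the edgeR values from all 5 libraries with 95% intervals, and open diamonds leave out 1 library. Every interval crosses 0, and Csf1r, Csf2rb2 and Flt3 change sign when 1 library is left out.

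Other ligands and receptors of the family were sparse too. Of 13 such genes, 6 had no count in any library, Flt3l, Il3 and Il5 among them, and 4 were tested, with 4 higher and 0 called. The interleukin 3 receptor alpha chain Il3ra lay at 0, 4.85 and 8.33 CPM in cKO, and at 0 and 1.65 CPM in wild type. Sdc1, which encodes syndecan 1, lay at 6.88, 19.5 and 8.41 CPM in cKO, and at 0.159 and 6.43 CPM in wild type. Csf3, the G-CSF gene, and Kitl, the KIT ligand gene, were counted in wild type replicate 1 alone, at 4.55 and 11.5 CPM.

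Downstream of the receptors, kinases, adaptors and STAT factors were divided in direction. Among 22 receptor-proximal kinases and adaptors 20 were tested, 12 lay higher and 8 lower, 0 were called, and the median log2 fold change was 0.16. Akt1, the survival kinase, lay at 95.9, 291 and 124 CPM in cKO, and at 68.2 and 85.4 CPM in wild type. The Src family kinase Fyn lay at 47.4 ± 14.6 CPM in cKO and 15.3 ± 9.17 CPM in wild type (SD, n = 3 and n = 2), with an edgeR adjusted p of 0.968. Jak2, the kinase bound to the GM-CSF receptor, lay at 56.0 ± 25.9 CPM in cKO and 49.0 ± 9.36 CPM in wild type.

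Of the 5 STAT genes 2 lay higher and 3 lower (0 called, median -0.17). Stat3, which acts downstream of the G-CSF receptor and of IL-6 family cytokines, lay at 111, 72.0 and 134 CPM in cKO, and at 50.4 and 56.7 CPM in wild type. Every cKO library was above both wild type libraries, as in 8.87% of all tested genes and 1 of the 5 in this list. Stat3 was named for its low p, and its log2 fold change of 0.98 did not pass (standard error 0.46, edgeR adjusted p = 0.968). Stat5b, which GM-CSF activates, lay at 8.01, 25.9 and 0 CPM in cKO, and at 15.9 and 38.3 CPM in wild type.

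Feedback inhibitors and targets of cytokine signalling showed no called gene either. Of 16 negative regulators, 9 were higher and 7 lower in cKO (0 called, median 0.50). Socs1, an inhibitor of JAK kinases, lay at 168, 55.5 and 65.4 CPM in cKO, and at 40.1 and 42.4 CPM in wild type. The cKO libraries all lay above wild type, as in 8.87% of all tested genes and 2 of the 16 in this list. Socs1 was named for its low p, and its log2 fold change was 1.22 (standard error 0.64, edgeR adjusted p = 0.984). Spred1, an inhibitor of Ras signalling, lay at 63.6 ± 27.1 CPM in cKO and 36.0 ± 0.693 CPM in wild type. Of 13 tested STAT5 and growth factor targets, 8 were higher and 5 lower in cKO (0 called, median 0.08). The growth regulator Myc lay at 94.98, 136 and 42.6 CPM in cKO, and at 34.4 and 31.0 CPM in wild type (edgeR adjusted p = 0.968). Ccnd1, which encodes cyclin D1, lay at 87.6 ± 12.9 CPM in cKO and 52.1 ± 5.55 CPM in wild type (edgeR adjusted p = 0.999). Cish, a classical STAT5 target, was spread most within wild type, at 38.0, 34.9 and 20.9 CPM in cKO, and at 76.0 and 7.07 CPM in wild type.

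Transcription factors of the receptor genes were evenly split, with 6 of 12 tested higher, 6 lower, 0 called and a median of 0.01. Cebpa, a myeloid lineage factor, lay at 1.63, 0.779 and 0.687 CPM in cKO and had no count in wild type. Gata2, a progenitor and mast cell factor, lay at 0, 5.81 and 2.23 CPM in cKO and had no count in wild type. In wild type replicates 1 and 2 a count of 0 allows up to 0.159 and 0.177 CPM. Neither gene was called (edgeR adjusted p = 0.968 for each). Both passed the filter on low counts through cKO libraries alone, so they could only lie higher. The split of this list is thus a description and supports nothing. Receptor shedding, recycling and degradation genes had 5 higher and 5 lower among 10 tested (0 called, median 0.01). Adam17, the protease known to shed CSF1R from the cell surface, lay at 24.6, 129 and 44.4 CPM in cKO, and at 3.81 and 12.0 CPM in wild type. Every cKO library was above both wild type libraries, as in 8.87% of all tested genes and 2 of the 10 in this list. Adam17 was named for its low p, and its log2 fold change of 3.07 did not pass over all genes (standard error 1.06, edgeR unadjusted p = 0.0243, adjusted p = 0.968). Eps15, an endocytic adaptor, lay at 66.0 ± 69.8 CPM in cKO and 29.4 ± 5.41 CPM in wild type, with its highest value, 146 CPM, in cKO replicate 2.

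**Figure D4:**
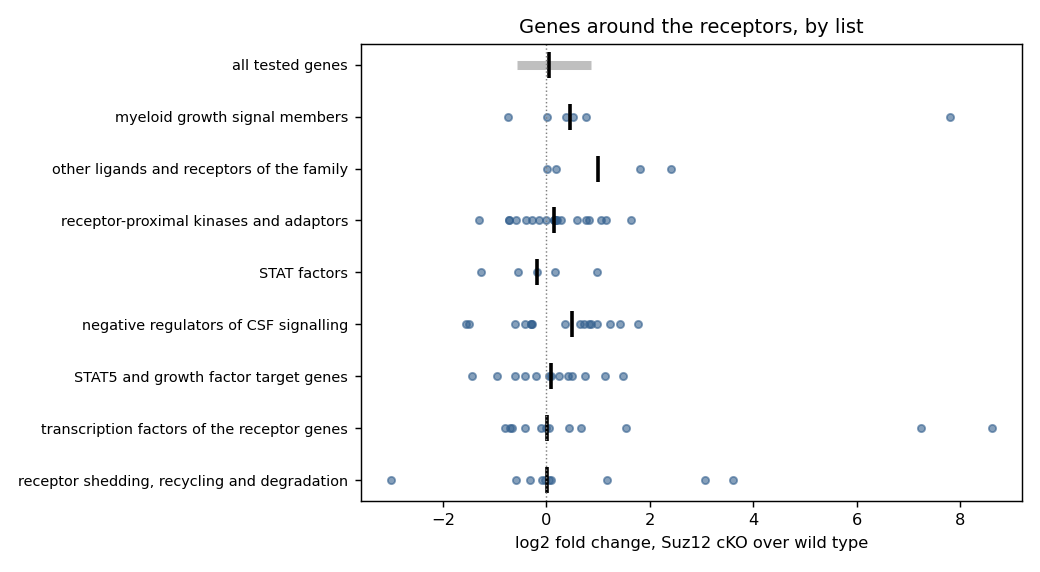
Log2 fold change of Suz12 cKO over wild type (horizontal axis) for each tested gene of 8 lists around the receptors (dots), with list medians (black ticks); the grey bar spans the middle quartiles of all tested genes. List medians run from -0.17 for STAT factors to 1.0 for other ligands and receptors of the family, which has 4 tested genes, and none of the genes was called. In that last list Crlf2 and Tgfb1 lay at 0.01 and 0.18, and Il3ra and Sdc1 had standard errors above their fold changes.

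The genes most like Csf1r across the 5 libraries were P2ry10, Eno1b and Gm5637, by the smallest root mean square difference of mean-centred log2(CPM + 1) among 531 tested genes within 2 times its mean CPM. P2ry10, a G protein-coupled receptor gene, differed by 0.136, and lay at 184, 517 and 211 CPM in cKO, and at 256 and 236 CPM in wild type. Like Csf1r it was highest in cKO replicate 2 and lowest in cKO replicate 1. Eno1b, a retrotransposed copy of an enolase gene whose reads may come from the parent gene, differed by 0.198, and Gm5637 by 0.205. For Il34, the ligand with the highest mean RPKM, Inpp4a, Ap5s1 and Slc5a3 were the most alike, with differences of 0.264, 0.288 and 0.319 among 1150 genes. All 3 were above 11 CPM in cKO replicate 1 and below 1 CPM in every other library.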

How the data were processed

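SMART-Seq libraries were sequenced as paired reads of 75 bases, per the series' design text. Raw counts and an exon length for each gene, as the authors deposited them, stand in a series table and again in 5 files of 1 sample each, which hold the same values. The submitters' processing notes name featureCounts and mm10. The aligner, versions, strand and multi-mapping settings are not given here. RefSeq on GRCm38.p6, the assembly of mm10, gave symbols for 25275 of 27179 identifiers, and 1 list symbol, an older name of Sh2b3, was unmatched.

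The test was edgeR 4.0.16 (R 4.3.3): filterByExpr with its minimum count at 10, then TMM factors, robust quasi-likelihood F test on genotype, Benjamini-Hochberg adjustment over 9988 genes, threshold 0.05. Log2 fold changes are cKO over wild type. RPKM was computed from the counts and lengths. DESeq2 1.42.0 and other settings were alternatives. Fits were tested on simulated counts. Same-group libraries differed by a chi-square of 161 to 376 per degree of freedom, so none was a second sequencing of another library. The check cannot tell separate animals from separate amplifications of the same cells or RNA. Figures used matplotlib 3.10.9.

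The genes and lists were chosen with earlier results of these data known. Named were the 9 genes, Suz12, up to 3 called or else the 2 lowest-p genes of each pathway list, where a marker list is described up to 2 of its highest genes, and the 3 genes most like the leading receptor and ligand. Further genes named, such as Xcr1, Clec9a, Cxcr2, S100a9, Jak2, Cish, Spi1, Csf3 and Kitl, and the PU.1 core were chosen after values were seen. Marker lists not described beside a result were those of melanocytes (33.1 to 145 CPM in cKO, 39.6 and 429 CPM in wild type) and mast cells and basophils (0 to 5.81 CPM in cKO, 0.106 and 2.24 CPM in wild type).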

Additional observations from a re-analysis of the deposited data

How the results depend on the processing

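None of the 9 genes was called under any of the 12 settings run on the whole table. The count of all called genes was 0 in the main edgeR fit and with each library left out, 191 with DESeq2 and 1 with the replicate number as a block. Same-numbered libraries of the groups did not deviate together (correlations of -0.03 and -0.02 across genes). The deviations of 2 wild type libraries mirror each other, so these correlations cannot exclude a shared source, and the labels name none. With the replicate block the log2 fold changes were 0.46 for Csf1r, 0.49 for Csf2ra, 0.77 for Csf2rb, 0.28 for Csf2rb2, -0.31 for Flt3 and 8.70 for Csf3r, none of them called. Csf2ra, Csf2rb and Csf3r kept their direction in all settings run, and Csf3r had too few counts to be tested without cKO replicate 1 or 2. Leaving out 1 library at a time gave ranges of -0.10 to 0.84 for Csf1r, 0.21 to 0.53 for Csf2ra, 0.41 to 0.98 for Csf2rb, -0.38 to 0.32 for Csf2rb2, -1.42 to 0.56 for Flt3 and 6.99 to 10.1 for Csf3r. Where this left 1 wild type library, it was assumed to vary like the cKO libraries. With a term for the title style (LC or Langerhans-cell), Csf2rb2 was at -0.15 and Csf3r at 6.11. The log2 ratio of Csf1r over Csf2ra per length ranged from -0.00105 to 0.31 with 1 library left out and was 0.17 with the longest transcript as length. The difference in the Csf1r share ranged from -6.44 to 7.06 percentage points with 1 library left out and was -0.62 without division by length. Except where a library left out is the change itself, the cause was not tested. The fit without the legacy setting of edgeR was added after seeing the data and called 0 genes. With 2 wild type libraries, the 95% intervals of the receptors reach log2 changes of over 1 in at least 1 direction.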
